A study of Mus musculus with 96 samples.

Results

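The endoplasmic reticulum (ER) chaperones described here are 9 genes, chosen by name as *Hspa5*, *Hsp90b1*, *Pdia3*, *Pdia4*, *Pdia6*, *Calr*, *Canx*, *Dnajc3*, and *Sdf2l1*. All 9 were present among the 41575 gene symbols of the count table. The rule that chose them uses only their names, though the set was proposed with earlier results of these data known. The study compared wild-type mice with mice lacking both copies of *Scx* (*Scx-/-*), a transcription factor of tendon and ligament progenitors, by MuSeq, a bulk RNA-seq method in which barcoded samples are pooled. Mice of both groups were 3 weeks old, and 3 libraries per genotype were made from each of 16 tissues, 96 libraries in all: cortex and hippocampus, stomach, intestine, rectum, and liver, kidney and bladder, lung, heart, and vascular, spleen, muscle, bone, cartilage, and adipose. The *Scx* allele was absent from every cell of the animal rather than from chosen cells, and tissues were measured whole. No source used here gives the sex of the animals or ties libraries to a shared animal, so *p*-values measure the spread between libraries, part of which may be technical.

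Proteins that are secreted or placed in membranes fold inside the ER, where chaperones hold unfolded stretches, disulfide isomerases join cysteines, and lectin chaperones bind trimmed sugar chains. *Hspa5* encodes BiP, the main chaperone of the ER lumen, which works with co-chaperones such as the products of *Dnajc3* and *Sdf2l1*, and *Hsp90b1* encodes a chaperone that completes the folding of a set of client receptors and secreted proteins. When unfolded proteins accumulate, the unfolded protein response (UPR) raises transcription of these genes, and tissues that secrete heavily, such as liver and exocrine glands, are known for high levels of them.

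Levels are given as CPM, the count of a gene scaled to the total of its library. Totals ran from 11244 to 1658192 counts (median 251640), and 8 libraries held under 50000. At least 1 count of *Scx* was found in 12 of 48 wild-type libraries (80 counts) and in 1 of 48 *Scx-/-* libraries, a cartilage sample with 9 counts. Which part of the gene the allele lacks was not given in the text of the study, so these counts check the labels only in part. Marker lists were highest in the tissue they name for liver (hepatocyte genes, 16.7% of counts), muscle, heart, kidney, lung, stomach, and brain. In adipose they went against the label. There 27 pancreatic acinar genes, which encode digestive enzymes and their partners, took 73.3% of counts on average (66.1 to 76.7% in wild-type and 69.8 to 76.3% in *Scx-/-* libraries), and the 10 adipocyte genes were highest in vascular samples (1.12%). The 5 brown fat genes were highest in vascular samples too (0.743%). The study judged its vascular samples contaminated and left them out of later steps. They are kept here as 1 of the 16 tissues, and the average between genotypes is also given without them. The libraries labelled adipose are called adipose-labelled below. Cartilage held 12.9% skeletal muscle markers beside 0.622% chondrocyte markers.

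Promoters of ER chaperone genes are known for an element through which the UPR acts, so the windows with that element are shown first. No factor or promoter activity was measured in these samples. The letters CCAAT, then 9 bases of any kind, then CCACG, known as the ER stress response element, were searched on both strands from 250 bases before to 50 bases after the start site of each gene in the RefSeq annotation of GRCm38.p6. All 9 genes had a window. An exact match was found in 6 of 9 (*Hspa5*, *Hsp90b1*, *Pdia6*, *Calr*, *Canx*, and *Dnajc3*), compared with 39 of 32851 promoters in all (0.119%). With 1 mismatch allowed the count was 8 of 9 (all but *Sdf2l1*), compared with 1.5% of all promoters. A second element, the letters ATTGG, then 1 base of any kind, then CCACG, also searched on both strands, had no exact match in the 9 windows and matched 0.0365% of all promoters. With 1 mismatch allowed it was found in *Hspa5* and *Sdf2l1* and in 1.16% of all promoters. The searched elements can overlap, and a match is a description of letters in the window only. The 250 bases before the start site of *Hspa5* (chr2:34771840-34772089, plus strand) held 1 exact match, 65 to 47 bases before the start, and those of *Hsp90b1* (chr10:86705445-86705694, minus strand) held a pair, 1 on each strand. Sequences are written 5′ to 3′ on the strand of the gene, with the fixed letters of each exact match in capitals.
Hspa5: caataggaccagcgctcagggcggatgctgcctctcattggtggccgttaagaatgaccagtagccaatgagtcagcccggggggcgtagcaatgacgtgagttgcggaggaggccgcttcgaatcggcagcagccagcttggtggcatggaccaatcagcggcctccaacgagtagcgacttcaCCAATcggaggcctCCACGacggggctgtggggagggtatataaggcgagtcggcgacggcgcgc
Hsp90b1: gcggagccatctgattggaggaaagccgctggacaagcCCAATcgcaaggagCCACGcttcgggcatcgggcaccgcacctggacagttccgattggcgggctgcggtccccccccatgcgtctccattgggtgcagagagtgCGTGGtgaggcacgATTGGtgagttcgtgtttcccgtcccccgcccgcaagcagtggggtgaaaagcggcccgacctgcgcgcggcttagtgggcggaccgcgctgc
For the other 4 genes with an exact match, the stretch around it is given (*Pdia6* chr12:17266471-17266529, plus; *Calr* chr8:84847055-84847113, minus; *Canx* chr11:50325780-50325838, minus; *Dnajc3* chr14:118937807-118937865, plus). *Calr* carries the element on the opposite strand, so that its capitals read CGTGG and then ATTGG.
Pdia6: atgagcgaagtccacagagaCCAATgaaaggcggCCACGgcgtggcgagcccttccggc
Calr: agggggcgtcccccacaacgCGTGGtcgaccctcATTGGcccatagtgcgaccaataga
Canx: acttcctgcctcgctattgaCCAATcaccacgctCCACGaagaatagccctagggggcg
Dnajc3: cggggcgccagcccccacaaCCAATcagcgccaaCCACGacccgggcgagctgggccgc

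With both genotypes pooled, the mean of ER chaperone RNA was highest in liver and lowest in muscle. The 9 genes together made up 3051 ± 1282 CPM in liver (SD, n = 6 libraries, both genotypes), 2864 ± 620 in kidney, 2804 ± 499 in stomach, and 759 ± 253 in muscle, a 4.02-fold range. On library totals muscle was the lowest tissue for 8 of 9 genes, and heart was lowest for *Sdf2l1*. With TMM-scaled totals, the scaling of the tests below, muscle was lowest in the sum and for *Hsp90b1*, *Pdia4*, and *Calr*. Hippocampus was then lowest for *Hspa5* and *Dnajc3*, heart for *Pdia3*, *Pdia6*, and *Sdf2l1*, and vascular samples for *Canx*. By genotype, on library totals, the summed means fell in another order, which was not tested as a difference. In wild-type mice liver led with 4078 ± 842 CPM (n = 3), ahead of kidney at 3301, and in *Scx-/-* mice the means of stomach (2610 ± 536), kidney (2427), and liver (2024 ± 489) lay about an SD or less apart. Liver was the highest tissue for 7 of 9 genes in wild-type mice and for 1, *Hsp90b1*, in *Scx-/-* mice. Muscle was lowest in the sum in both, at 982 and 537 CPM, and for 4 and 6 of the 9 genes. In bulk samples, fewer cells that express a gene and less of its RNA per cell cannot be told apart. The order of tissues was gradual. Neighbours in the order of the summed level lay closer together than the larger of their SDs in 14 of 15 pairs, and for each gene this held for at least 14 of 15 pairs.

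**Figure D1:**
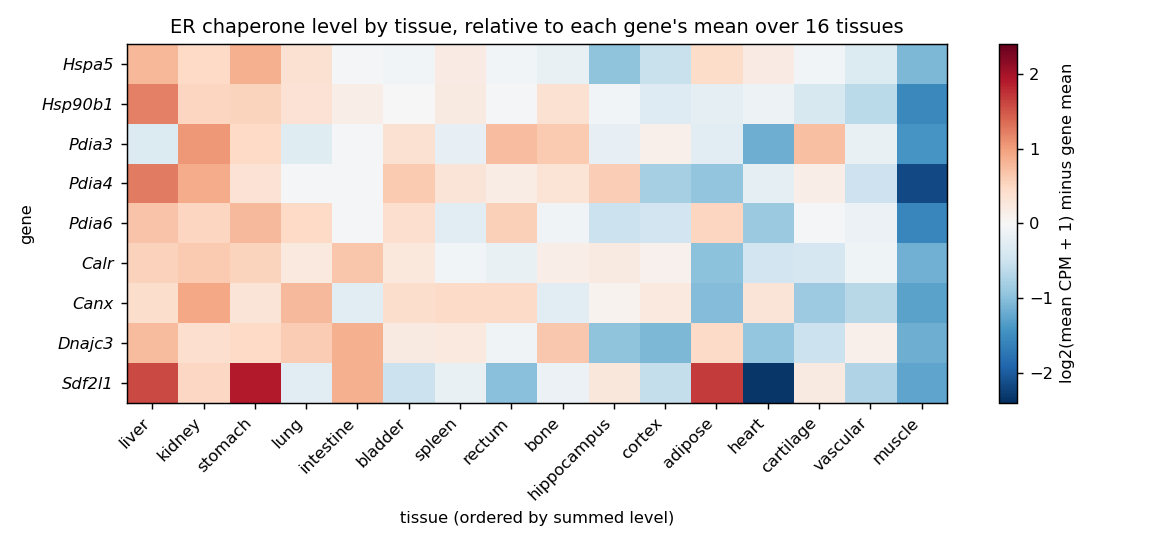
Heat map of the 9 ER chaperone genes (rows) in 16 tissues (columns, ordered by summed level), with colour giving log2(mean CPM + 1) of 6 libraries minus the mean of that gene over tissues. Liver, kidney, and stomach are red for most genes, muscle is blue for all 9, and *Sdf2l1* has the widest span.

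With TMM-scaled totals *Hspa5* (1205 CPM), *Pdia6*, *Dnajc3*, and *Sdf2l1* had their highest pooled mean in adipose-labelled samples. *Calr* (1288 CPM), *Canx* (653 CPM), *Hsp90b1*, and *Pdia4* had it in liver, and *Pdia3* in kidney. The values that follow are on library totals, where the order was another for most genes. On library totals the tissue with the highest pooled mean differed from gene to gene. For *Hspa5* it was stomach (720 ± 245 CPM), with muscle lowest (190 ± 121), 3.79-fold apart. By genotype *Hspa5* was highest in liver in wild-type mice (1015 CPM, stomach 752) and in stomach in *Scx-/-* mice (687, liver 382). *Hsp90b1* peaked in liver at 489 ± 169 CPM and fell to 70.9 ± 20 in muscle, 6.90-fold lower. Both genes placed liver, stomach, and kidney as their first 3 tissues. *Pdia4*, a disulfide isomerase with an extra active domain, had a wider span, from 153 ± 41.1 CPM in liver to 13.5 ± 12.2 in muscle (11.3-fold). *Pdia6*, an isomerase that binds BiP, ranged from 268 ± 83.2 CPM in stomach to 52.4 ± 19.0 in muscle (5.12-fold). *Pdia3*, which joins disulfides in glycoproteins held by the lectin chaperones, was highest in kidney (88.6 ± 52.5 CPM) and was low in liver at 33.6 ± 23.4, where it ranked 14th. That place depended on the scaling, since *Pdia3* ranked 5th in liver with TMM-scaled totals (56.9 CPM). Of the lectin chaperones, the soluble calreticulin (*Calr*) had its highest pooled mean in intestine (870 ± 260 CPM) and the membrane-bound calnexin (*Canx*) in kidney (575 ± 121 CPM), both with muscle last (246 ± 131 and 124 ± 39.8 CPM). The place of intestine for *Calr* rests on the *Scx-/-* libraries, whose mean of 1016 CPM comes from 37, 35, and 32 counts. In wild-type mice *Calr* was highest in liver (1056 CPM, intestine 724), and without libraries under 50000 counts kidney came first and intestine 4th. *Dnajc3*, a co-chaperone that hands unfolded proteins to BiP, had its highest pooled mean in intestine, 161 ± 195 CPM, an SD larger than the mean. That place rests on an *Scx-/-* library at 528 CPM from 14 counts. In wild-type mice *Dnajc3* was highest in liver (196 CPM, intestine 91.7), and without libraries under 50000 counts bone came first (159 CPM) and intestine 9th (101 CPM). *Sdf2l1*, a partner of another BiP co-chaperone, was the least counted gene, with 1043 counts in all, and ranged from 83.9 ± 59.1 CPM in stomach to 3.46 ± 5.74 in heart (24.3-fold). *Sdf2l1* was at 0 in 27 of 96 libraries, which were 7 wild-type and 20 *Scx-/-* libraries, and accounted for most of the 52 zeros among 864 values.

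Each of 8 tissues was then compared with the average of the other 15, with both genotypes averaged, by edgeR's quasi-likelihood test on all 96 libraries with TMM scaling. A gene was called at a Benjamini-Hochberg adjusted *p* under 0.05 over 13459 genes and a log2 fold change beyond 1 in size. Liver called 8 of 9 genes, all higher, and 16.1% of all genes tested were called higher there. In liver, *Hsp90b1* (log2 fold change 1.99, SE 0.24, adjusted *p* = 1.13e-13 by edgeR) and *Pdia4* (2.04, SE 0.32, adjusted *p* = 1.03e-08) rose, as did *Sdf2l1* (2.68, SE 0.50, adjusted *p* = 2.26e-06), whose call was lost without the libraries numbered 1 (1.76, adjusted *p* = 0.312), and *Pdia3* was not called (0.18, SE 0.48, adjusted *p* = 1.00). For *Sdf2l1* the average of the other tissues held 4 groups without a count (*Scx-/-* heart, intestine, lung, and vascular samples), which lower it on the log scale. The fold changes of *Sdf2l1* in liver, and below in adipose-labelled and stomach libraries, rest in part on these groups. The median log2 fold change of the 9 genes in liver was 1.42, beside −0.06 for all genes. Hepatocyte markers held 16.7% of liver counts, and their part in the result was not tested. With library totals in place of TMM, 3 of the 8 calls in liver stayed (*Hsp90b1*, *Pdia4*, and *Sdf2l1*), the median of all genes moved to −0.64, and the split of all calls went from 2162 higher and 236 lower to 1381 and 592.

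The adipose-labelled libraries called 4 of 9 genes higher (*Hspa5*, *Pdia6*, *Dnajc3*, and *Sdf2l1*), where 3.03% of all genes were called higher. *Hspa5* stood 1.78 log2 units above the other tissues (SE 0.24, adjusted *p* = 8.27e-11 by edgeR) and *Sdf2l1* 3.47 (SE 0.79), while *Calr* (0.15, SE 0.26) and *Canx* (0.14, SE 0.31) were not called. *Dnajc3* lost its call without the libraries numbered 1 (adjusted *p* = 0.155) or 3 (0.143), and *Sdf2l1* without those numbered 2 (0.0574) or 3 (0.0749). The direction depended on the scaling. With library totals *Hspa5*, *Pdia6*, and *Dnajc3* lost their calls, *Sdf2l1* stayed higher, *Calr* and *Canx* were called lower, and all calls split as 235 higher and 1812 lower, compared with 408 and 286 under TMM, 551 and 159 under RLE, the scaling of DESeq2, and 376 and 3009 by limma-trend. The median of all genes was −1.35 under TMM and −2.03 with totals. On library totals the summed level was 1636 ± 523 CPM, 12th of 16 tissues, and it was 6028 CPM and first when the 27 acinar genes were taken out of the totals. Those genes held 73.3% of the counts there. Taking them out of the totals raises every other gene in these libraries, while the counts of the 9 genes stay the same.

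**Figure D2:**
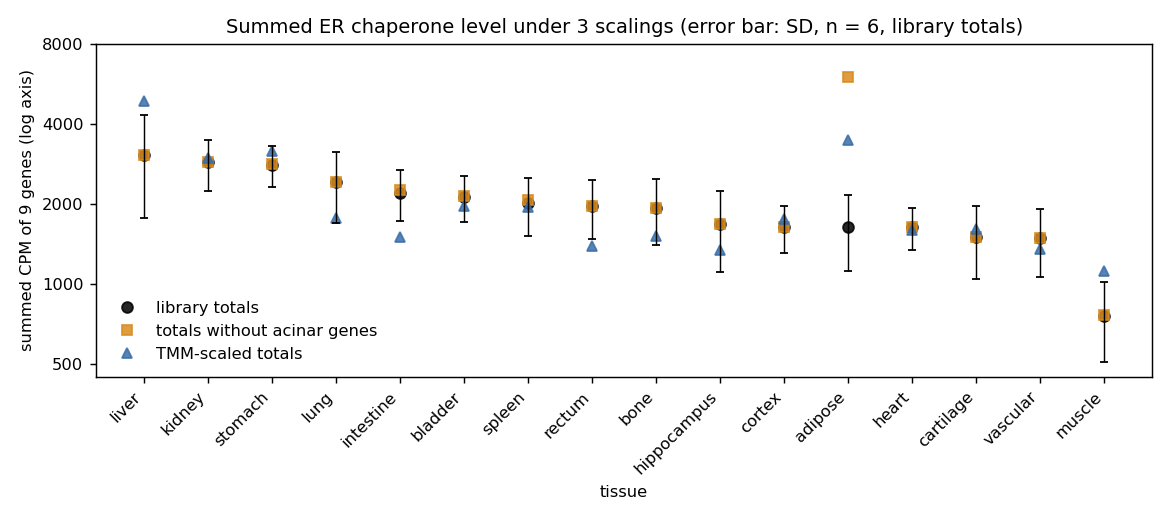
Summed CPM of the 9 genes (log axis) in 16 tissues as the mean of 6 libraries under library totals (black, with SD), totals without acinar genes (orange), and TMM-scaled totals (blue). The adipose-labelled samples move from 1636 to 6028 and 3490 CPM, and muscle stays lowest under each scaling. Taking out the acinar genes changes the totals only, not the counts of the 9 genes.

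In stomach, *Hspa5* (log2 fold change 1.07, SE 0.23, adjusted *p* = 8.92e-05 by edgeR) and *Sdf2l1* (2.79, SE 0.47, adjusted *p* = 1.85e-07) were called higher, against 15.7% of all genes. *Hspa5* lost its call there under RLE (0.61), with library totals (0.97), and without the libraries numbered 1 (0.90). In muscle 1 of 9 genes was called lower, against 0.736% of all genes, and the gene was *Pdia4* (log2 fold change −1.49, SE 0.52, adjusted *p* = 0.0284). That call was lost without the libraries numbered 1 (−0.95, adjusted *p* = 1.00) or 3 (−1.11, adjusted *p* = 0.318). All 9 genes had a log2 fold change below 0 in muscle, with a median of −0.78 beside 0.24 for all genes. Under RLE and under library totals 6 genes were called lower in muscle (*Hspa5*, *Hsp90b1*, *Pdia4*, *Pdia6*, *Calr*, and *Canx*), with all calls split as 1286 higher and 247 lower and as 1078 and 331, compared with 2211 and 99. In cortex *Dnajc3* was called lower (−1.05, SE 0.38, adjusted *p* = 0.0163), against 2.35% of all genes. It was not called under RLE (−0.88, adjusted *p* = 0.0422) or without the libraries numbered 1 (adjusted *p* = 0.0682) or 3 (0.319). No member was called in cartilage, bone, or heart by edgeR, where 11.1%, 6.16%, and 11.1% of all genes were called in either direction. In heart *Dnajc3* (−1.42, SE 0.55, adjusted *p* = 0.0783) and *Pdia6* (−1.03, SE 0.41, adjusted *p* = 0.0917) did not pass, and both were called under RLE. *Sdf2l1*, without a count in *Scx-/-* heart, had −2.92 (adjusted *p* = 1.00).

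Likeness between the 9 genes varied. On log2(CPM + 1) of the 16 tissue means, Pearson's *r* between members, given as a description, was above 0 in 35 of 36 pairs, with a median of 0.54. *Hsp90b1* and *Pdia4* were most alike (*r* = 0.86), followed in their own best pairs by *Calr* with *Pdia4* (0.78) and *Hspa5* with *Pdia6* (0.77). *Dnajc3* was closest to *Pdia6* (0.76), *Canx* to *Hsp90b1* (0.71), *Pdia3* to *Pdia6* (0.67), and *Sdf2l1* to *Pdia6* (0.65). The lowest value was that of *Canx* with *Sdf2l1* (−0.01). All pairs share the same libraries and totals. Of 10967 other genes with a mean of at least 10 CPM, the one most like the summed level was *Cpt1a* (*r* = 0.91), which encodes the enzyme that brings long-chain fatty acids into mitochondria. *Tvp23b* (0.88), *Tmem176b* (0.84), *Ftl1* (0.83), and *Rpn1* (0.83) came next, then *Fndc3a* (0.82) and *Eny2*, *Grb7*, *Galk1*, and *Tmem176a* (0.81 each). The order depended on the measure. By Spearman's rank correlation these genes ranged from 2nd (*Grb7*) to 116th (*Fndc3a*), with *Cpt1a* 11th, *Tvp23b* 43rd, and *Rpn1* 82nd. *Rpn1* encodes a subunit of the enzyme that attaches sugar chains to new proteins in the ER, and the median *r* of all genes compared was 0.13.

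Averaged over the 16 tissues, *Hspa5* and *Hsp90b1* were lower in *Scx-/-* mice. A log2 fold change below 0 was found for 8 of 9 ER chaperone genes, against 48.4% of all genes. It was also found for 16 of 20 other ER folding factors and 17 of 20 translocation and *N*-glycosylation genes. For collagen-folding genes it was 7 of 9 and for cytosolic chaperones 11 of 14. Among UPR sensors and factors it was 7 of 12, and for ER-associated degradation 5 of 13. *Hsp90b1* fell by 0.75 on the log2 scale (SE 0.16, adjusted *p* = 0.00465 by edgeR, 32-group fit) and *Hspa5* fell by 0.58 (SE 0.13, adjusted *p* = 0.0186). The other 7 members did not pass. *Calr* stood at −0.41 (SE 0.12, adjusted *p* = 0.290), *Pdia6* at −0.51 (SE 0.17, adjusted *p* = 0.433), *Pdia3* at −0.47 (SE 0.26), *Pdia4* at −0.40 (SE 0.23), and *Canx* at −0.14 (SE 0.14), the last 3 with an adjusted *p* of 1.000. *Sdf2l1* had −1.60 (SE 0.59, adjusted *p* = 0.6), a value that rests on 4 groups without a count, and *Dnajc3* alone lay above 0, at 0.36 (SE 0.20, adjusted *p* = 1.000). The median of the 9 genes was −0.47 and that of all 13459 genes 0.02. It depended on the libraries used, at −0.78 without those numbered 1 (all genes 0.11), −0.28 without those numbered 2 (0.03), and −0.43 without those numbered 3 (0.00). The average takes the 48 libraries of a genotype as independent, since the labels do not say whether a number marks 1 animal in several tissues. With libraries of 1 genotype and number taken as correlated over tissues, a limma-trend fit added after the values were seen, the estimated correlation was 0.0018, and *Hspa5* (−0.56, adjusted *p* = 0.0194), *Hsp90b1* (−0.70, adjusted *p* = 0.0348), and *Calr* (−0.44, adjusted *p* = 0.0499) were called. That fit called 12 genes lower (0.0892%) and 74 higher, a split unlike that of edgeR (10 and 9). Averaged over tissues by number, log2(CPM + 1) of *Hspa5* was 8.79, 8.95, and 8.79 in wild-type and 8.58, 7.95, and 8.03 in *Scx-/-* mice, and that of *Hsp90b1* was 7.78, 8.28, and 7.62 against 7.44, 6.78, and 6.78. Both genes were already called on these libraries, so the values by number are a description.

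The 2 calls compare with 10 genes called lower of 13459 (0.0743%) and 9 called higher, and by rank of *p* *Hsp90b1* was 11th and *Hspa5* 14th of all genes. At an unadjusted *p* under 0.05, 5 of 9 members were lower and 0 higher, against 2.04% of all genes lower. These shares of all genes are low in part because 10922 of the 13459 genes had no count in at least 1 of the 32 groups, and 8708 of those had *p* over 0.99 in this fit. Of the 2537 genes counted in every group, a set added after the values were seen that holds 8 of the 9 members, 0.236% were called lower and 4.69% were lower at an unadjusted *p* under 0.05. Of the 5 members above, *Sdf2l1* lies outside this set, and *Calr*, *Hsp90b1*, *Hspa5*, and *Pdia6* lie in it. Under RLE, library totals, and limma-trend *Calr* was also called (adjusted *p* = 0.0325, 0.0451, and 0.0421), and all calls split as 8 higher and 18 lower, 8 and 17, and 80 and 17, respectively. Both calls rested in part on intestine, whose *Scx-/-* libraries held 26500 to 54955 counts. Without it *Hsp90b1* fell by 0.56 (adjusted *p* = 0.0962) and *Hspa5* by 0.48 (adjusted *p* = 0.102). *Hspa5* also lost its call without bladder, bone, liver, lung, or muscle (adjusted *p* from 0.0509 to 0.0690, fits added after the values were seen), and both genes lost theirs without the libraries numbered 2 (adjusted *p* = 1.000 for each) or those numbered 3 (1.000 for *Hspa5* and 0.147 for *Hsp90b1*). Without a filter on low counts *Hspa5* had an adjusted *p* of 0.0773. Without vascular samples both stayed called (*Hsp90b1* fell by 0.76, adjusted *p* = 0.00481, and *Hspa5* by 0.59, adjusted *p* = 0.0321).

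**Figure D3:**
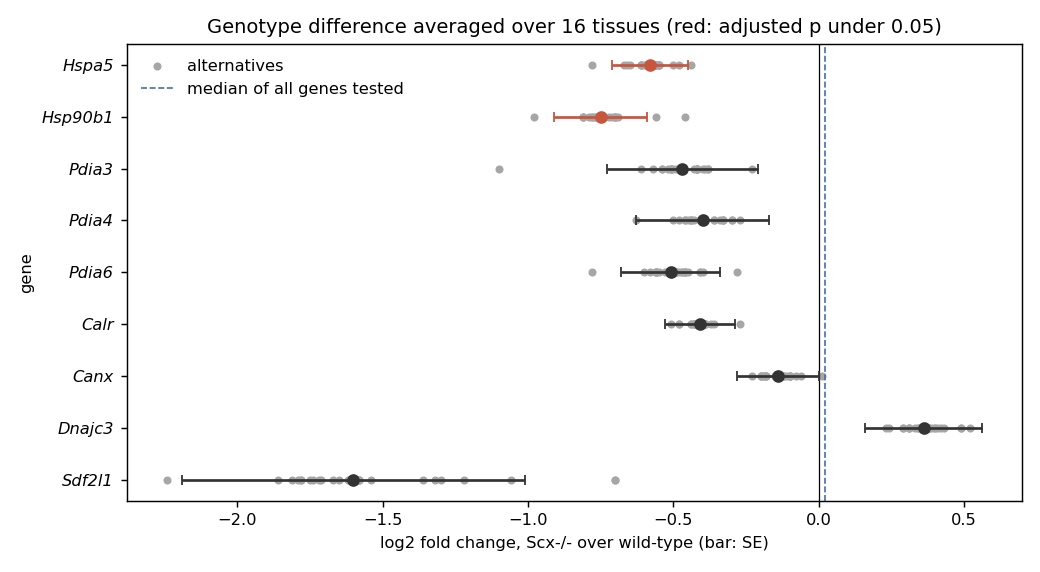
Log2 fold change of *Scx-/-* over wild-type mice averaged over 16 tissues for the 9 genes, with SE bars, where red marks an adjusted *p* under 0.05, grey points are the alternative fits, and the dashed line is the median of all genes tested. *Hsp90b1* (−0.75) and *Hspa5* (−0.58) are red, and *Dnajc3* (0.36) is the only gene to the right of 0.

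On plain CPM the direction was the same. The mean of the summed level was lower in *Scx-/-* mice in 16 of 16 tissues, and in 14 with TMM-scaled totals, where adipose-labelled and rectum samples turned. In rectum the means were nearly equal on library totals, at 1964 CPM in wild-type and 1960 CPM in *Scx-/-* mice. The sum is weighted toward the more abundant genes. By gene the count of tissues with a lower mean was 15 for *Hsp90b1* and *Calr*, 14 for *Hspa5*, 12 for *Pdia3* and *Pdia6*, 11 for *Sdf2l1*, 10 for *Canx*, 9 for *Pdia4*, and 7 for *Dnajc3*. Of all genes with a mean of at least 10 CPM, 0.583% were lower in at least 14 tissues, and 3 of 9 members were. With TMM-scaled totals it was 2 members (*Hspa5* and *Hsp90b1*) and 0.292% of all genes, and without the libraries numbered 1, 2, or 3 it was 4, 1, and 2 members and 0.474%, 0.319%, and 0.374% of all genes. With all libraries, 7 of the 86 other listed genes with such a mean were also lower in at least 14 tissues (*Hspa8*, *Hsph1*, *Serpinh1*, *Txndc5*, *Tram1*, *Sec61a1*, and *Rpn1*). *Herpud1*, a listed gene of ER-associated degradation, went the other way. It had a higher mean in *Scx-/-* mice in 14 tissues (285 CPM in wild-type and 366 CPM in *Scx-/-* mice over all tissues). All 3 *Scx-/-* libraries lay below all 3 wild-type libraries in 35 of 142 gene and tissue pairs with a mean of at least 10 CPM (24.6%), and above them in 3, while the shares over all genes were 5.45% and 5.40%. Where the mean was at least 100 CPM, 27 of 88 member pairs were wholly lower and 1 wholly higher, against 6.51% and 6.40% of all genes.

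Other values moved with genotype as well. The mean total of a library was lower in *Scx-/-* mice in 7 of 16 tissues, so depth moved both ways. Of 19 marker lists, the 8 osteoblast genes, with the collagen gene *Col1a1* among them, had a lower mean share in *Scx-/-* mice in 15 of 16 tissues, with a mean over tissues of 0.708% in wild-type and 0.527% in *Scx-/-* mice and a range over libraries of 0.00893 to 5.99% and 0.00238 to 5.59%. Smooth muscle and B cell lists were lower in 12 tissues each, and the plasma cell list, which marks antibody-secreting cells rich in ER, was lower in 6 (0 to 0.0872% in wild-type and 0 to 0.108% in *Scx-/-* libraries). In kidney the 7 tubule genes took 2.59 to 3.53% of counts in wild-type and 2.03 to 2.25% in *Scx-/-* libraries, without overlap. In intestine the 7 enterocyte genes took 1.69 to 4.15% and 3.36 to 7.80%, with overlap. Higher shares in *Scx-/-* libraries, without overlap, were found for the 7 neuron genes in hippocampus (0.760 to 0.781% and 0.825 to 0.852%) and the 5 urothelium genes in bladder (0.499 to 0.803% and 0.818 to 0.975%). The part of these cells in the lower chaperone counts was not tested.

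*Hspa5* was counted in all 96 libraries, and its lowest *p* was in liver. It stood at 958, 1354, and 734 CPM in the 3 wild-type liver libraries and at 440, 424, and 283 CPM in the *Scx-/-* ones. The groups did not overlap, and *Hspa5* fell by 1.22 on the log2 scale (SE 0.29, adjusted *p* = 0.00922 by edgeR), the only pair of gene and tissue to pass an adjusted *p* under 0.05. Over all genes 0.142% were called lower in liver and 0.0323% over the 16 tissues. The call was lost without wild-type replicate 2 (−0.99, adjusted *p* = 0.241), *Scx-/-* replicate 2 (−1.27, adjusted *p* = 0.0722), or *Scx-/-* replicate 3 (−1.03, adjusted *p* = 0.419), and with filterByExpr (adjusted *p* = 0.0913), and over all alternatives the adjusted *p* ran from 3.09e-04 to 0.419. Hepatocyte markers took 16.7 to 19.1% of counts in wild-type liver and 14.5 to 16.9% in *Scx-/-* liver, with 0 of the 9 measured genes at 0, and their part was not tested.

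In intestine *Hspa5* had 669, 667, and 351 CPM in wild-type libraries and 218, 200, and 226 CPM in *Scx-/-* libraries, which rest on 12, 6, and 6 counts. In lung the wild-type values were 623, 514, and 1034 CPM and the *Scx-/-* values 405, 154, and 373 CPM. In muscle they were 395, 255, and 202 CPM and 84.2, 97.1, and 106 CPM. In each of these 3 tissues every *Scx-/-* library was lower. Hippocampus had 261, 238, and 287 CPM against 223, 131, and 94.0 CPM. Bladder had 463, 584, and 334 CPM against 318, 309, and 284 CPM. The genotypes did not overlap in hippocampus or bladder either, though the nearest libraries lay close together.

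In the other 10 tissues the libraries of the genotypes overlapped for *Hspa5*. Bone held 667, 552, and 212 CPM in wild-type and 320, 121, and 237 CPM in *Scx-/-* libraries. Rectum held 303, 770, and 402 CPM against 356, 269, and 201 CPM. Cortex held 242, 302, and 467 CPM against 292, 159, and 204 CPM. The *Scx-/-* mean was lower in all 3, with libraries of the genotypes interleaved. Spleen showed 469, 710, and 448 CPM in wild-type mice and 581, 262, and 270 CPM in *Scx-/-* mice. Cartilage showed 101, 564, and 591 CPM and 347, 463, and 225 CPM. Kidney showed 603, 706, and 483 CPM and 431, 399, and 705 CPM. The *Scx-/-* means were again lower, with overlap. Stomach values were 1003, 521, and 733 CPM in wild-type and 1006, 638, and 419 CPM in *Scx-/-* libraries. Heart values were 500, 534, and 377 CPM against 580, 494, and 280 CPM. The means of both tissues differed by less than the SD of either group. The vascular samples gave 313, 175, and 426 CPM in wild-type and 550, 143, and 302 CPM in *Scx-/-* libraries. The adipose-labelled samples gave 500, 408, and 694 CPM and 899, 324, and 456 CPM. These were the 2 tissues in which the *Scx-/-* mean of *Hspa5* was the higher.

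**Figure D4:**
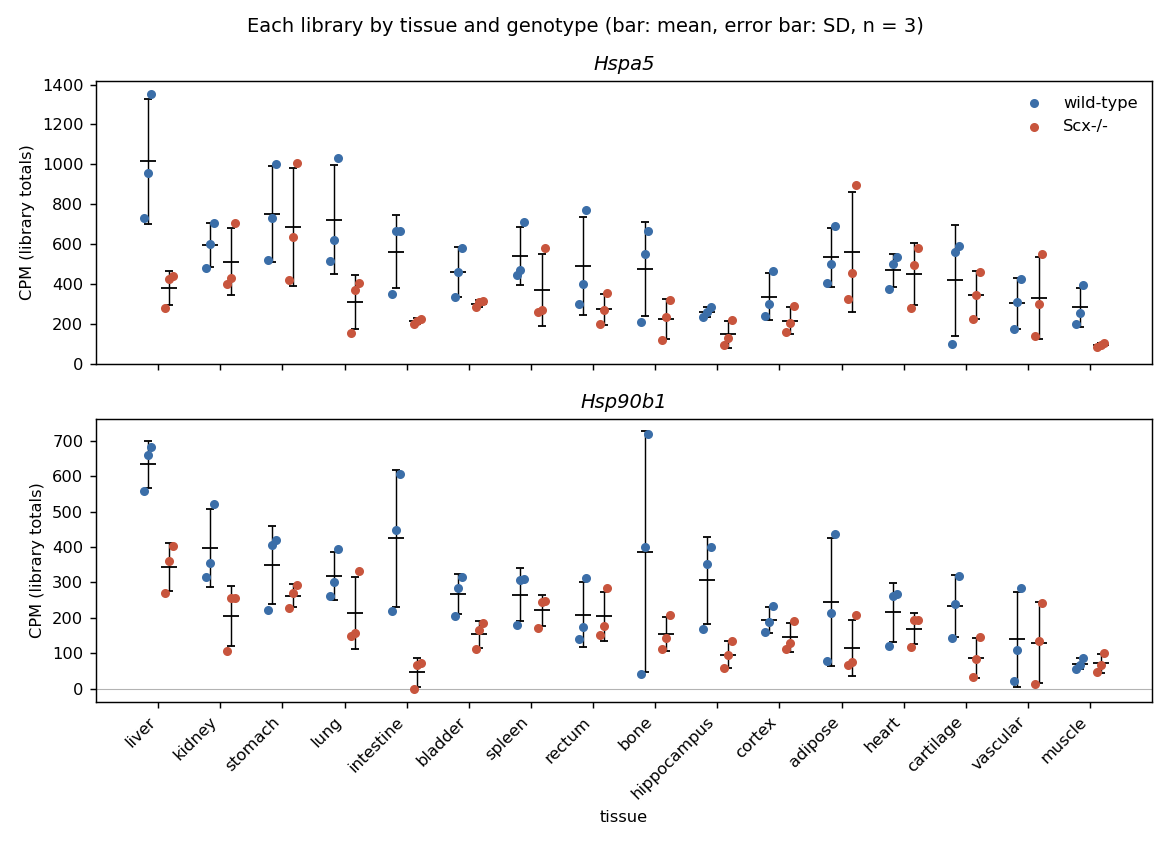
CPM of *Hspa5* (top) and *Hsp90b1* (bottom) in each library by tissue, wild-type in blue and *Scx-/-* in red, with a black bar for the mean and error bars for SD (n = 3). The genotypes do not overlap for both genes in bladder, hippocampus, intestine, and liver, and they overlap in 10 of 16 tissues for *Hspa5* and in 11 for *Hsp90b1*.

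The lowest log2 fold change of *Hsp90b1* was in intestine. Wild-type intestine had 220, 605, and 447 CPM and *Scx-/-* intestine 72.8, 66.6, and 0 CPM, the latter from 4, 2, and 0 counts. *Hsp90b1* fell by 3.46 there (SE 1.28, adjusted *p* = 0.652 by edgeR), while the median of all genes in intestine was −1.63, and without wild-type replicate 2 its unadjusted *p* was 0.0953. In hippocampus the values were 169, 352, and 399 CPM in wild-type and 134, 58.6, and 94.0 CPM in *Scx-/-* libraries (fell by 1.53, SE 0.61, adjusted *p* = 0.762). In kidney they were 356, 521, and 314 CPM against 255, 255, and 107 CPM (fell by 1.04, SE 0.32, adjusted *p* = 0.315). None of these 3 passed the adjusted threshold, though the groups did not overlap. Liver held 559, 660, and 681 CPM against 402, 361, and 271 CPM, and bladder 206, 284, and 316 CPM against 165, 112, and 185 CPM. These also did not overlap, with log2 fold changes of −0.69 (SE 0.32) and −0.88 (SE 0.41).

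Elsewhere the *Hsp90b1* values overlapped. Cartilage had 142, 319, and 239 CPM in wild-type and 82.7, 34.1, and 145 CPM in *Scx-/-* libraries. Bone had 399, 720, and 42.4 CPM against 208, 113, and 142 CPM. The lowest wild-type bone value came from 2 counts. Lung gave 395, 300, and 263 CPM and 331, 149, and 158 CPM. Cortex gave 161, 233, and 187 CPM and 191, 130, and 113 CPM. Heart gave 261, 267, and 121 CPM and 119, 194, and 194 CPM. The *Scx-/-* mean was lower in each of these tissues, with overlap. For stomach the values were 222, 419, and 406 CPM in wild-type and 293, 269, and 227 CPM in *Scx-/-* mice. For spleen they were 306, 310, and 179 CPM and 244, 171, and 248 CPM. For the adipose-labelled samples they were 214, 79.6, and 437 CPM and 207, 65.9, and 76.3 CPM. Means were again lower with overlap. Rectum (175, 313, and 141 CPM against 178, 152, and 283 CPM) and vascular samples (110, 285, and 22.9 CPM against 242, 13.0, and 134 CPM) had nearly equal means, 209 and 204 CPM and 139 and 130 CPM. Muscle was the tissue whose *Scx-/-* mean was not lower, with 65.8, 87.2, and 56.9 CPM against 46.3, 101, and 68.1 CPM.

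Of the BiP co-chaperones, neither passed an adjusted *p* under 0.05 in a tissue. *Dnajc3* had 9 tissues with a higher and 7 with a lower mean in *Scx-/-* mice, and its libraries separated upward in 2. In heart it stood at 6.82, 0, and 21.3 CPM in wild-type and 32, 81.3, and 135 CPM in *Scx-/-* libraries (log2 fold change 2.53, SE 1.48, adjusted *p* = 0.738 by edgeR). In adipose-labelled samples it stood at 121, 9.95, and 143 CPM against 148, 162, and 151 CPM, where acinar genes held most counts in both genotypes. *Sdf2l1* was likewise higher there, at 0, 59.7, and 66.5 CPM against 86.5, 86.9, and 130 CPM. *Sdf2l1* was at 0 in every *Scx-/-* library of heart, intestine, lung, and vascular samples. Its wild-type values in intestine were 67.2, 118, and 53.2 CPM (46 counts of 608173). Pooled, they lay 2.81-fold above the limit that 3 counts in the *Scx-/-* libraries together would set. The same ratio was 4.13-fold in lung (12 counts), 2.19-fold in vascular samples (15 counts), and 2.05-fold in heart (8 counts). These ratios allow for counting error in the *Scx-/-* libraries only. The error of the wild-type counts and the spread between libraries are left out, so the ratios are not lower bounds. In liver *Sdf2l1* had 83.1, 183, and 52.9 CPM against 69.0, 8.51, and 1.72 CPM (fell by 1.74, SE 0.74, adjusted *p* = 0.746), with overlap, and its log2 fold change ran from −4.11 without *Scx-/-* replicate 1 to −1.17 without wild-type replicate 2. In kidney it had 52.2, 51.1, and 43.1 CPM against 4.47, 33.8, and 0 CPM, without overlap.

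Of the lectin chaperones, *Calr* did not pass the test in any tissue. Its *Scx-/-* mean was lower in all tissues but intestine, and the libraries separated in 6 tissues (cartilage, cortex, kidney, liver, lung, and muscle). In muscle *Calr* stood at 428, 317, and 340 CPM in wild-type and 135, 137, and 121 CPM in *Scx-/-* libraries (log2 fold change −1.06, SE 0.62). In liver it stood at 993, 1378, and 797 CPM against 726, 544, and 379 CPM (−0.75, SE 0.28). In kidney it stood at 968, 1196, and 796 CPM against 787, 691, and 660 CPM (−0.58, SE 0.23). Adjusted *p*-values were far from the threshold (adjusted *p* = 0.771, 0.520, and 0.791 by edgeR). Intestine went the other way on CPM, with 871, 620, and 681 CPM against 673, 1166, and 1208 CPM. *Canx* separated downward in liver, spleen, and stomach. In stomach it had 497, 410, and 488 CPM against 234, 326, and 292 CPM (−0.74, SE 0.34, adjusted *p* = 0.797), and it had a higher mean in 6 tissues, among them rectum (324 and 506 CPM). *Pdia3* was low, from 15.4 to 88.6 CPM in tissue means, and separated downward in bone (95.3, 117, and 106 CPM against 62.4, 16.1, and 0 CPM) and spleen (40.7, 62.1, and 63.2 CPM against 29.9, 16.1, and 11 CPM).

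Among the isomerases, *Pdia6* separated the genotypes in 6 tissues (bladder, bone, intestine, kidney, liver, and lung), lower in *Scx-/-* mice in each. Bladder had 185, 289, and 428 CPM in wild-type and 128, 131, and 90.5 CPM in *Scx-/-* libraries (fell by 1.42, SE 0.42, adjusted *p* = 0.272 by edgeR). Kidney had 301, 341, and 259 CPM against 208, 132, and 115 CPM (fell by 1.08, SE 0.36, adjusted *p* = 0.439). In lung the values were 196, 407, and 338 CPM against 99.2, 92.3, and 186 CPM. *Pdia6* was higher in the *Scx-/-* mean of rectum (192 and 279 CPM), heart (60.9 and 107 CPM), cartilage, and muscle, each with overlap. *Pdia4* separated in hippocampus, liver, and spleen. Hippocampus had 304, 146, and 49.0 CPM against 35.2, 3.91, and 47.0 CPM (fell by 2.40, SE 1.01, adjusted *p* = 0.762), where the highest wild-type value rests on 36 counts, and without that library its unadjusted *p* was 0.193. In liver *Pdia4* had 185, 192, and 180 CPM against 130, 85.1, and 145 CPM.

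At the thresholds the study used, an unadjusted *p* under 0.05 and a log2 fold change beyond 1, 10 pairs of gene and tissue were called, of 9 genes in 16 tissues, and all 10 were lower in *Scx-/-* mice. Over all genes and tissues 1.85% were called lower and 1.85% higher. The calls were *Hsp90b1*, *Hspa5*, and *Sdf2l1* in intestine, *Hsp90b1* and *Pdia4* in hippocampus, *Hsp90b1* and *Pdia6* in kidney, *Hspa5* and *Sdf2l1* in liver, and *Pdia6* in bladder. The shares of all genes called lower were 2.96% in intestine, 1.47% in hippocampus, 2.69% in kidney, 2.01% in liver, and 1.95% in bladder. Leaving out the fold threshold, 20 pairs had an unadjusted *p* under 0.05 and all were lower, against 2.00% of all genes. In intestine the median log2 fold change of the 9 genes was −1.73, close to −1.63 for all genes, and all calls there split as 156 higher and 357 lower under TMM and as 257 and 182 with library totals. In hippocampus, kidney, and liver the medians of the members were −0.63, −0.58, and −0.69, beside 0.42, −0.28, and 0.22 for all genes. In bladder the median of the members was 0.02, with 4 of 9 below 0, beside −0.14 for all genes. With library totals the splits of all calls into higher and lower moved from 345 and 207 to 276 and 270 in hippocampus, from 250 and 414 to 323 and 339 in kidney, from 305 and 268 to 217 and 385 in liver, and from 274 and 296 to 313 and 250 in bladder.

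**Figure D5:**
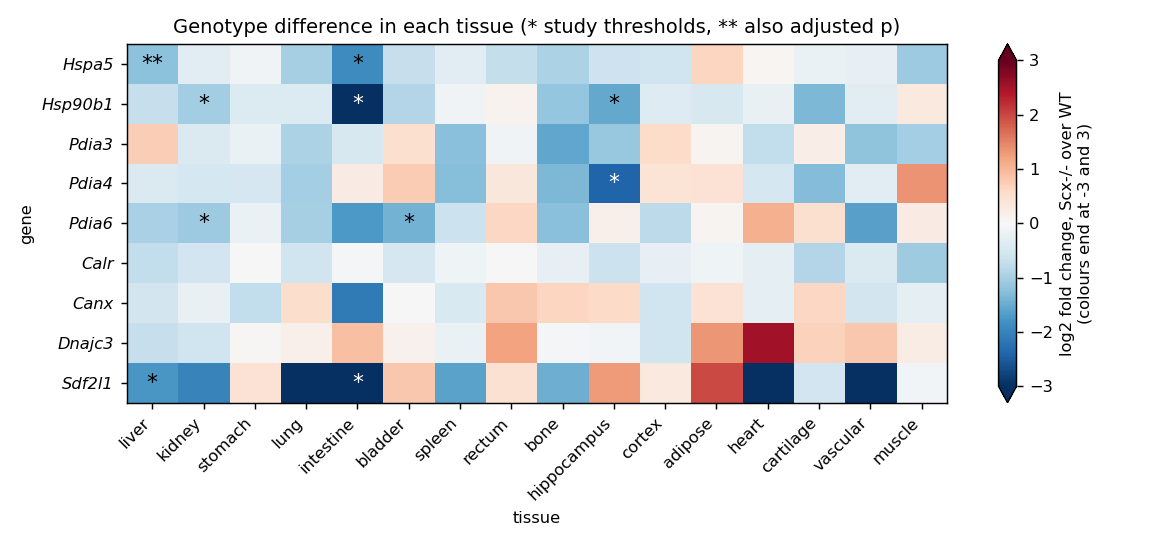
Log2 fold change of *Scx-/-* over wild-type libraries for 9 genes (rows) in 16 tissues (columns), blue for lower and red for higher, with colours ending at −3 and 3. A star marks the 10 pairs past the thresholds of the study, and a pair of stars marks *Hspa5* in liver, which also passed an adjusted *p* under 0.05.

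Whether the genotype effect differed between tissues was tested directly. The interaction of genotype and tissue was called for 0 members by edgeR, where 0.0669% of all genes were called. By limma-trend it was called for 0 members too, and for 301 of 13459 genes. At an unadjusted *p* under 0.05 there was 1 member, *Sdf2l1* (adjusted *p* = 0.755 by edgeR). *Hspa5* had an adjusted *p* of 0.910 and *Hsp90b1* 0.895, so the effects in liver and intestine were not shown to differ from those in other tissues.

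The other genes of ER protein handling were read from the same average over tissues, in which 34 of the 87 listed genes tested lacked counts in at least 1 group, as did 7 of the 19 genes called in all. Of 20 other ER folding factors tested, 0 passed an adjusted *p* under 0.05 in the average over tissues by edgeR, 1 had an unadjusted *p* under 0.05 (*Manf*, which encodes a BiP-binding secreted factor, −0.37, SE 0.18), and the median was −0.24. The most abundant, *P4hb*, a disulfide isomerase, stood at −0.08 (SE 0.13) and the prolyl isomerase gene *Ppib* at −0.21 (SE 0.13). Among 9 tested genes of collagen folding, *Serpinh1*, the collagen-specific chaperone of the ER, fell by 0.91 (SE 0.15, adjusted *p* = 2.06e-05), and it also passed in bladder (−1.22, SE 0.26, adjusted *p* = 0.00255) and kidney (−1.26, SE 0.30, adjusted *p* = 0.0175). The other 8 did not pass, *P4ha2* having an unadjusted *p* under 0.05 (−1.43, SE 0.64) with no count in *Scx-/-* heart, intestine, liver, and spleen, and the median of this list was −0.42.

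The transcription factors and sensors of the UPR had a median of −0.02 over 12 genes, with 0 called and 1 at an unadjusted *p* under 0.05, the sensor gene *Atf6*, at 1.00 (SE 0.43) with no count in wild-type adipose-labelled samples. *Xbp1*, a UPR transcription factor, stood at −0.03 (SE 0.17), and *Atf4*, the factor of the branch that slows translation, at −0.01 (SE 0.17). For ER-associated degradation, which removes misfolded proteins, 0 of 13 were called, 3 had an unadjusted *p* under 0.05, all lower, and the median was 0.01. Its most abundant gene, *Herpud1*, stood at 0.26 (SE 0.15), *Sel1l* at 0.07 (SE 0.18), and *Os9* at 0.00 (SE 0.20). Translocation and *N*-glycosylation genes numbered 20, with 0 called, 6 lower at an unadjusted *p* under 0.05, and a median of −0.23. *Rpn2* stood at −0.21 (SE 0.15), *Dad1* at −0.12 (SE 0.15), and *Sec62* at 0.21 (SE 0.16). Of 14 cytosolic chaperones 0 were called and 1 had an unadjusted *p* under 0.05 (*Hspa8*, −1.23, SE 0.52), and their median was −0.24. *Hsp90ab1*, the most abundant of them, stood at −0.20 (SE 0.11) and *Cct2* at 0.24 (SE 0.18).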

How the data were processed

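The deposited table held raw counts for each gene symbol, for which the authors aligned reads with Bowtie2 (mm10) and counted them with HTSeq, versions not stated. All 96 columns were matched to a sample by name. CPM was computed here from the deposited counts and library totals (11244 to 1658192 counts), with log2(CPM + 1) for likeness between genes. The 9 genes and all gene lists were chosen with earlier results of these data known.

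Genotypes were compared in each tissue with edgeR 4.0.16 in R 4.3.3 (TMM, glmQLFit with robust estimation, genes with a count in any of 6 libraries), with Benjamini-Hochberg adjustment over all genes tested. Averages, the interaction, and tissue contrasts came from 1 fit of 32 groups on 13459 genes passing filterByExpr. A gene without a count in a whole group can get *p* near 1 from this fit. SE was the log2 fold change divided by the square root of *F*. Scripts were tested on simulated data. Alternatives were RLE, library totals, another low-count filter, DESeq2 1.42.0 or limma-trend 3.58.1, the replicate block, and left-out libraries. No replicate pair agreed within sampling noise (chi-square per degree of freedom at least 6.93). Promoters came from the RefSeq table of GRCm38.p6. Listed genes were named where their adjusted *p* was under 0.05, otherwise up to 3 by abundance, and a few with an unadjusted *p* under 0.05 were named after their values were seen. Python 3.11.15 was used with pandas 2.3.3 and matplotlib 3.10.9. The embryonic single-cell data were not analysed here.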

Additional observations from a re-analysis of the deposited data

Results flagged for a closer look

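For *Sdf2l1*, every *Scx-/-* library lay above the wild-type libraries in 1 tissue and below them in 4 others. Its mean was higher in *Scx-/-* adipose-labelled samples by 58.9 CPM, and its difference (*Scx-/-* minus wild-type mean) was −79.4 CPM in intestine, −36.1 CPM in kidney, −35.5 CPM in lung, and −25.6 CPM in vascular samples. None of these tissues passed an adjusted *p* under 0.05 by edgeR (adjusted *p* from 0.614 to 0.791), and intestine alone had an unadjusted *p* under 0.05. The opposite directions of these tissue pairs were not tested one by one. The interaction over all 16 tissues did not pass for this gene (adjusted *p* = 0.755 by edgeR). Groups of 3 libraries were too small for a check of outlying libraries.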

How the results depend on the processing

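Low counts, the scaling, and single replicates all limit the calls: *Sdf2l1* and *Pdia3* often rest on fewer than 10 counts in a library, and intestine *Scx-/-* libraries hold 26500 to 54955 counts. At the thresholds of the study the number of called pairs was 10, and 7 to 12 without single libraries. At an adjusted *p* under 0.05 it was 1, 0 with filterByExpr, and 0 to 2 without single libraries. In the average over tissues it was 2, 1 without a filter on low counts, and 0 to 2 without a replicate number or a tissue. *Canx* ran from −0.23 to 0.01 without a replicate number or a tissue, the 0.01 without intestine. For the interaction the number was 0 throughout.

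Between tissues, the number of called genes in liver was 8, 3 with library totals, and 7 to 8 without a replicate number. In stomach it was 2, 1 under RLE and 1 with library totals, and 1 to 3 without a replicate number. Cartilage had 0, 1 under RLE, and 0 to 1 without a replicate number. Muscle had 1, 6 under RLE and with library totals, 0 by limma-trend and without a filter, and 0 to 1 without a replicate number. Heart had 0, 2 under RLE, and 1 by limma-trend. Cortex had 1, 0 under RLE and limma-trend, and 0 to 1 without a replicate number. The adipose-labelled tissue had 4, 5 under RLE (*Hsp90b1* gained), 3 with library totals (1 higher and 2 lower), and 2 to 4 without a replicate number, and bone had 0 in each fit. The cause of these changes was not tested.

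Replicate numbers did not pair the libraries: deviations of wild-type and *Scx-/-* libraries of a tissue with the same number correlated at −0.14 to 0.03 over 48 pairs. Between tissues of a genotype, same-numbered libraries correlated at −0.08 to 0.07 in wild-type and −0.03 to 0.05 in *Scx-/-* mice (360 pairs each, medians 0.01), and libraries with different numbers had medians of −0.01. With the replicate block 9 pairs were called at the thresholds of the study, 1 at an adjusted *p*, and 2 genes in the average over tissues. *Pdia4* in hippocampus and *Hspa5* and *Sdf2l1* in intestine lost their calls under the block (unadjusted *p* = 0.0525, 0.0742, and 0.0975). *Hsp90b1* in hippocampus lost its call without *Scx-/-* replicate 2 (unadjusted *p* = 0.0688), and *Hsp90b1* and *Pdia6* in kidney fell short of the fold threshold in 6 of 11 fits each, among them those without wild-type replicate 2 or *Scx-/-* replicate 3. *Sdf2l1* in liver lost its call without wild-type replicate 2 or *Scx-/-* replicate 2 or 3, *Pdia4* in hippocampus also without *Scx-/-* replicate 2, and in intestine *Hspa5* lost its call in 8 of 12 fits and *Sdf2l1* in 10 of 11. Single calls at the thresholds of the study were lost in 41 of 112 alternative fits and none turned, and *Pdia6* in bladder kept its call in all 11. The summed level stayed lower in *Scx-/-* mice in 14 tissues with TMM-scaled totals, in 16 without libraries under 50000 counts, and in 14 to 16 without a replicate number, settings added after the values were seen.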
